A study of Mus musculus with 6 samples.

Results

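Slc17a6, Nts, Fn1, Lxn, Etv1, 1110008P14Rik, Vwc2l, Kctd8 and Emb are 9 of the 20234 genes of a Drop-seq table of mouse CA1. They were chosen by their level after erythropoietin (EPO), which leaned upward against placebo in these same mice, so their EPO difference is given below as a description without a test. The mice were male wild-type C57Bl6 animals at P28 that received 1 injection of placebo (mice 1, 3 and 5) or of 5000 IU/kg recombinant human EPO (mice 2, 4 and 6), and the hippocampal CA1 region was dissected from slices after 6 h. Each single cell was caught with a barcoded bead, and each transcript was counted as a unique molecular identifier (UMI). Barcodes with more than 1000 and at most 8000 detected genes and at most 40% UMIs from mitochondrial genes were retained, which left 973 of 6000 barcodes. Of these 973 cells, 606 held at least 1 UMI of at least 1 of the 9 genes. A cell with at least 1 UMI of a gene is called a carrier of that gene below.

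The subiculum borders CA1 and is the main output station of the hippocampal formation, where its pyramidal neurons receive the axons of CA1. Glutamatergic neurons load their synaptic vesicles through VGLUT1 (gene Slc17a7), which prevails in cortex and hippocampus, or through VGLUT2 (gene Slc17a6), which prevails in thalamus and brainstem and is also found in neurons of the subiculum. Nts encodes the precursor of the neuropeptide neurotensin, Fn1 the matrix glycoprotein fibronectin, and Vwc2l a secreted protein with von Willebrand factor C domains. Kctd8 is an auxiliary subunit of GABA-B receptors, Emb (embigin) an immunoglobulin-family membrane protein that escorts monocarboxylate transporters, Etv1 a transcription factor of the ETS family, and Lxn (latexin) an inhibitor of carboxypeptidases. No marker list of the subiculum other than these genes was used, so whether the carriers came from the subiculum was not tested.

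The 9 genes lie on 8 chromosomes, and Vwc2l (chr1:70725715-70885397) and Fn1 (chr1:71585520-71653200) lie on the same chromosome at a distance of 700 kb (mm10, GENCODE annotation). The other genes are Slc17a6 (chr7:51622006-51671119), Nts (chr10:102481756-102490486), Lxn (chr3:67457998-67463926), Etv1 (chr12:38779380-38870484), 1110008P14Rik (chr2:32377097-32381938), Kctd8 (chr5:69109285-69341679) and Emb (chr13:117208536-117274415). Each is annotated as protein-coding. RefSeq promoter sequences (GRCm38.p6, the 250 bases before a transcript start) were at hand for 8 of the 9 genes, as 10 promoters, and were searched on both strands for 4 short motifs. The ETS core CCGGAA was in 0 of the 10 and in 12% of all 32851 promoters. The AP-1 site TGACTCA was in 1 of the 10 (Nts) and in 4.46% of all, and TGACGT, the core of the cAMP response element, was in 1 (Kctd8) and in 6.47% of all. The TATA box TATAAA was in 2 of the 10 (Vwc2l and Etv1) and in 12.4% of all promoters. The promoters of 3 genes are shown: that of Slc17a6, whose carriers are compared below, and those of Nts and Kctd8, which held a motif for a factor. They are chr7:51621580-51621829 on the plus strand, chr10:102490419-102490668 on the minus strand and chr5:69341710-69341959 on the minus strand. Capitals mark the AP-1 site in Nts, 207 to 201 bases before the start and read on the opposite strand, and the overlapping pair of TGACGT matches in Kctd8, whereas Slc17a6 held no motif.
Slc17a6: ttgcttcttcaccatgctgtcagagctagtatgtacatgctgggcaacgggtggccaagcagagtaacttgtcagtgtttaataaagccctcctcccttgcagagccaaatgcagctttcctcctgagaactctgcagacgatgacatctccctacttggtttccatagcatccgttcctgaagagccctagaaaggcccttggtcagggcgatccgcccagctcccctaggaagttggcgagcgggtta
Nts: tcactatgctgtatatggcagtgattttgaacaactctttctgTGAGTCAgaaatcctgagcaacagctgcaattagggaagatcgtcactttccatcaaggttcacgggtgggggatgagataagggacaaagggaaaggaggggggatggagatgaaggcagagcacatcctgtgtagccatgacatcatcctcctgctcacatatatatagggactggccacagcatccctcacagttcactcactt
Kctd8: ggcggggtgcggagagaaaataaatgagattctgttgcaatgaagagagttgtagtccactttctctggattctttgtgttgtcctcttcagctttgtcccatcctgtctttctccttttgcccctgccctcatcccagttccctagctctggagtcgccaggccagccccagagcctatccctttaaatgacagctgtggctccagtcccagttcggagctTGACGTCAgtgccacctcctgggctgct
No motif was common to these promoters, and a match of letters says nothing on its own about a bound factor.

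The retained cells numbered 163, 43 and 184 in placebo mice 1, 3 and 5 and 148, 271 and 164 in EPO mice 2, 4 and 6. Per mouse they held 204479 to 1948490 UMIs, on average 4755 to 7034 per cell in placebo and 6425 to 8458 per cell in EPO mice, and the median mitochondrial share ran from 3.58% to 18.3%. The labels add D1 (placebo 1 and 3, EPO 2) or D2 (placebo 5, EPO 4 and 6) without saying what it means. Clustering without the 9 genes gave 12 clusters, of which 5 with 618 cells were glutamatergic-like by their markers. Their share of cells was 37.2% to 73.9% in placebo and 61.3% to 68.9% in EPO mice. Placebo 1 and EPO 4 shared 26 retained barcode names, and the 2 profiles of such a barcode correlated with a median of 0.753, against 0.339 for other pairs of cells of these mice. They held 45.3% of the UMIs of placebo 1 and 6.60% of those of EPO 4, including 27 of the 32 Slc17a6 UMIs and 44 of the 51 Nts UMIs of placebo 1. In each of these barcodes placebo 1 held more UMIs than EPO 4, by 3.16 to 5.87 times (median 3.86). To which mouse these cells belong was not tested, so values without them (in both mice) are given beside the results that they moved. Such values take more from placebo 1 than from EPO 4, and they widen the EPO difference of Slc17a6 and Nts. With the barcodes left out in EPO 4 alone, the fitted EPO fold change stayed above 0 for all 9 genes.

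Summed over the retained cells of a mouse and given as counts per 1000000 UMIs (CPM), 7 of the 9 genes were higher in every EPO mouse than in every placebo mouse, with and without the shared barcodes. Of 10043 tested genes, 3.88% showed such an order, and since this difference chose the genes, nothing is read from the count. Slc17a6 had 28.4, 24.5 and 27.0 CPM in placebo 1, 3 and 5 and 50.5, 74.4 and 91.6 CPM in EPO 2, 4 and 6. The placebo mean was 26.6 ± 2.02 (SD, n = 3) and the EPO mean 72.2 ± 20.6 (n = 3). Without the shared barcodes placebo 1 fell to 8.12 CPM, so that the placebo mice no longer lay close together (19.9 ± 10.3), and the EPO mean was 73.2 ± 20.9.

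Among the genes of secreted proteins, Nts had 45.3, 0 and 50.2 CPM in placebo 1, 3 and 5 and 86.2, 90.3 and 138.4 CPM in EPO 2, 4 and 6. The groups did not overlap, and without the shared barcodes placebo 1 was at 11.4 CPM and the means were 20.5 and 105.1 CPM. The count of 0 in the 43 cells of placebo 3 allows up to 14.7 CPM (3 counts), which covers counting error only, as do all intervals here. Fn1 had 18.7, 9.78 and 27.0 CPM in placebo and 57.8, 34.4 and 32.4 CPM in EPO mice. Its groups were separate, but placebo 5 lay nearer to EPO 6 than to placebo 3. Vwc2l had 22.2, 4.89 and 12.4 CPM in placebo and 25.2, 8.72 and 28.8 CPM in EPO mice. EPO 4 was below both larger placebo libraries, so the groups overlapped.

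Of the membrane proteins, Kctd8 had 6.22, 0 and 4.64 CPM in placebo and 16.8, 24.6 and 22.3 CPM in EPO mice, on 108 UMIs in all. Emb had 23.1, 4.89 and 23.2 CPM in placebo and 38.9, 52.3 and 67.0 CPM in EPO mice. Both were separate between the groups, and both had their lowest value in placebo 3, the mouse with the fewest cells. The factor Etv1 had 111.1, 146.7 and 114.4 CPM in placebo and 154.6, 229.4 and 219.9 CPM in EPO mice, so that placebo 3 came close to EPO 2. When the shared barcodes were left out, Etv1 was at 65.0 CPM in placebo 1 and at 108.7 ± 41.2 on average in placebo mice. Lxn had 44.4, 92.9 and 41.0 CPM in placebo and 75.7, 71.3 and 135.5 CPM in EPO mice, and overlapped because placebo 3 was above EPO 2 and EPO 4. The gene 1110008P14Rik had 79.1, 53.8 and 88.1 CPM in placebo and 144.1, 120.1 and 266.7 CPM in EPO mice, without overlap. Within D1, EPO 2 was above both placebo mice for each gene but Lxn, and within D2 both EPO mice were above placebo 5 for each gene but Vwc2l. In the 5027 barcodes that were not retained, Vwc2l was the 1 of the 9 genes with each EPO mouse above each placebo mouse, an order seen there for 3.78% of the tested genes.

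**Figure D1:**
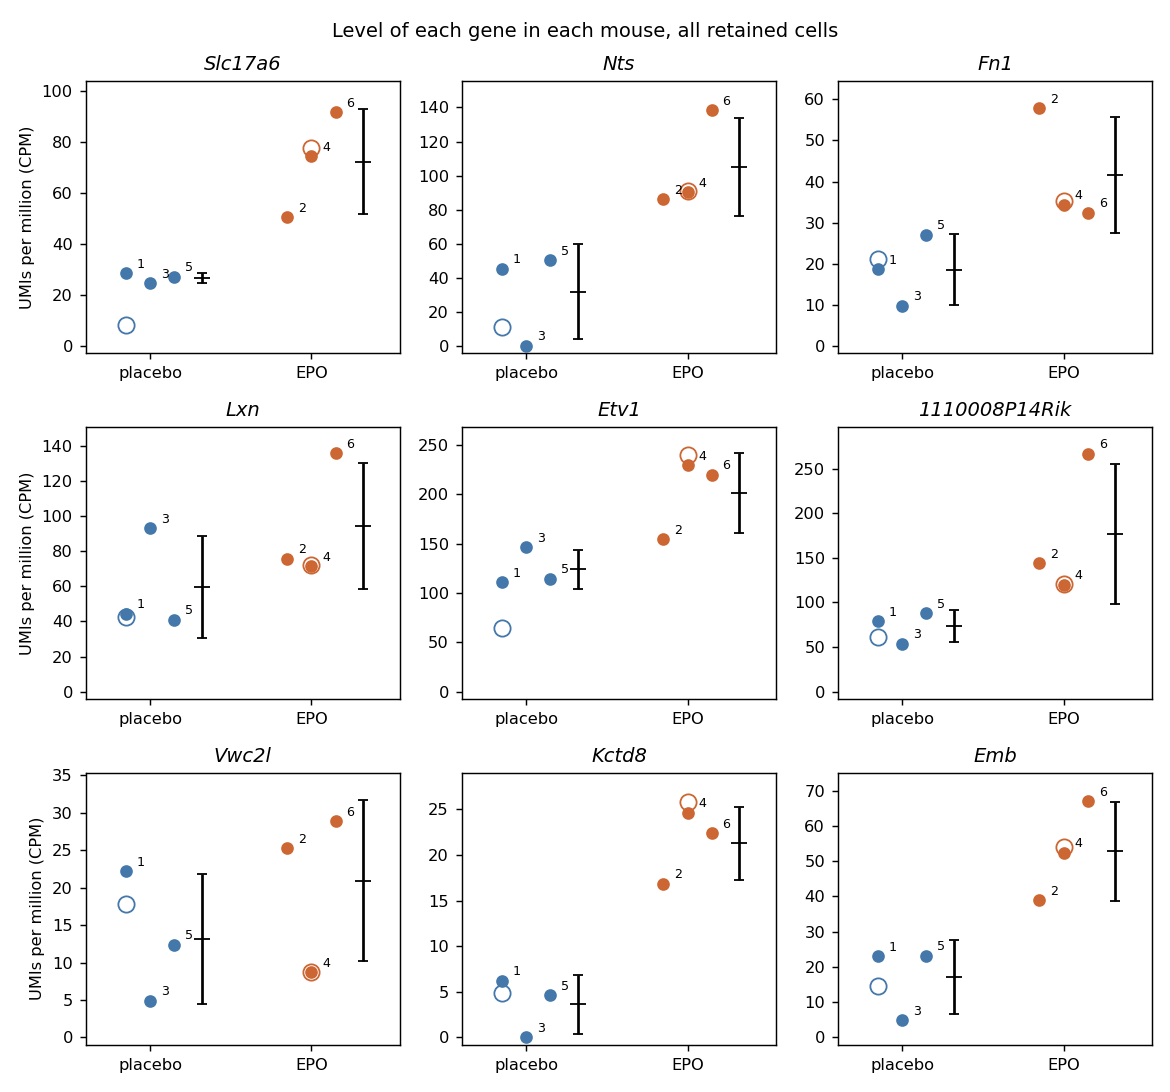
Level of the 9 genes (vertical axes, CPM) in each mouse over all retained cells. Filled points are mice with their number, bars are the mean ± SD of 3 mice, and open circles give placebo 1 and EPO 4 without the barcodes they share. The EPO points lie above the placebo points in 7 panels, and overlap with them for Lxn and Vwc2l.

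The fitted log2 fold changes (edgeR, EPO over placebo) ran from 0.34 ± 0.53 (SE) for Vwc2l to 2.10 ± 0.49 for Kctd8, with a median of 1.13 over the 9 genes against -0.01 over all genes. Over all genes, edgeR's quasi-likelihood test called 0% (0 of 10043) at an adjusted p under 0.05, with 127 genes under 0.05 before adjustment. DESeq2 called 1 gene and limma 0. Of 20 genes that work with the 9 (other vesicular transporters, receptors of neurotensin and fibronectin, GABA-B receptor subunits, ETS factors and monocarboxylate transporters), 12 were tested and 0 called, with 6 above 0 and a median of -0.08. Slc17a7, the VGLUT1 gene, had a log2 fold change of 0.02 ± 0.36, and Sort1, the neurotensin-binding receptor sortilin, of 0.22 ± 0.27. Tshz2 and Rxfp1, 2 genes of near-projecting cortical neurons, had 0.72 ± 0.28 and 1.57 ± 0.41, with an adjusted p of 0.999958 each (edgeR). Of the CA1 pyramidal genes, 6 were tested and 0 called (median 0.15), likewise 4 genes of deep cortical layers (median 0.05). Of the 4 genes of dentate gyrus and CA3, Prox1 alone passed the count filter, at -1.11 ± 0.52.

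Which cells carried the genes differed from gene to gene. Slc17a6 was a glutamatergic gene, with 103 of its 109 carriers among the 618 glutamatergic-like cells and 0 carriers among 47 GABAergic-like cells, which allows a share of up to 6.38%. After each cell was thinned to 1500 UMIs, 6.23% ± 2.399 (SD, n = 6 mice) of glutamatergic-like and 0.159% ± 0.389 of all other cells carried it, higher in 6 of 6 mice. Vwc2l had 53 of 57 carriers and Emb 133 of 138 carriers among glutamatergic-like cells, and after thinning the share of carriers was higher than in other cells in 4 of 6 mice for Vwc2l and in 5 of 6 for Emb. Nts had 64 of 74 carriers there and was higher in 4 of 6 mice after thinning. The same held in 5 of 6 mice for 1110008P14Rik, 4 for Etv1, 3 for Kctd8, 2 for Lxn and 0 for Fn1. Free RNA can place UMIs in cells that do not express a gene. Without thinning, the 355 cells of the other classes (median 3818 UMIs) held Slc17a6 in 1.69%, Nts in 2.82%, Emb in 1.41% and Vwc2l in 1.13% of cells. In glutamatergic-like cells (median 5230.5 UMIs) the shares were 16.7%, 10.4%, 21.5% and 8.58%. Whether the UMIs in the other classes came from free RNA or from the cells themselves was not tested. The 10 Nts carriers outside the glutamatergic-like cells held 19 UMIs. Of these carriers, 4 were endothelial-like cells with 8 UMIs and 1 was a GABAergic-like cell with 6 UMIs.

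Fn1 and Lxn were also carried by cells outside the neuronal clusters. Fn1 was carried by 62.5% (30 of 48) of endothelial-like cells, which make fibronectin in the vessel wall, at 624 CPM ± 350 (n = 5 mice with at least 5 such cells), against 16.7 CPM ± 11.8 (n = 6) in glutamatergic-like cells. The markers of another class scored as high in this cluster (1 and 1), and Rgs5, a marker of mural cells of vessels, was among its leading genes. Mural cells were thus not told apart from endothelial cells. Lxn was carried by 53.9% (41 of 76) of astrocyte-like cells, at 263 CPM ± 110 (n = 6), against 74.0 CPM ± 40.5 in glutamatergic-like cells. Etv1 was carried by 38.8% of glutamatergic-like, 33.6% (49 of 146) of oligodendrocyte-like and 35% (7 of 20) of OPC-like cells. Kctd8 was found in 14.9% (7 of 47) of GABAergic-like cells beside 5.34% (33 of 618) of glutamatergic-like cells. Astrocyte-like cells were 3.80% to 16.3% of placebo and 5.17% to 11.6% of EPO cells, endothelial-like cells 3.80% to 5.52% and 4.80% to 6.08%, and oligodendrocyte-like cells 10.3% to 27.9% and 10.4% to 19.6%.

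Among the glutamatergic-like clusters, cluster 5 with 90 cells held the most Slc17a6 carriers (61 of 109), and 67.8% of its cells carried the gene. In the other 4 clusters the share was 3.16% to 13.8%. The genes that led cluster 5 by fold, Nts and Slc17a6 first, included Lxn and 1110008P14Rik, although none of the 9 had been used to form it, and Tshz2, Ncald and Mef2c stood among them too. In cluster 5, 83.3% of the cells carried 1110008P14Rik, 51.1% Emb, 45.6% Etv1, 42.2% Lxn, 38.9% Vwc2l, 28.9% Nts, and 25.6% each Fn1 and Kctd8. In cluster 2, led by the CA1 genes Spink8 and Calb1, 63.8% of 160 cells carried Etv1, 58.1% 1110008P14Rik and 30% Lxn, but 0.625% Vwc2l and 0% Fn1. Cluster 3 had Rxfp1 and Tshz2 among its leading genes, and 11.4% of its 123 cells carried Fn1, 11.4% Vwc2l and 20.3% Emb. There Fn1 was at 43.1 CPM and Vwc2l at 36.2 CPM, against 59.1 and 76.1 CPM in cluster 5. The median depth was 8501 UMIs in cluster 5, 10776 in cluster 2 and 3528 to 5068 in the other glutamatergic-like clusters.

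Cells that carried many of the genes were rare and glutamatergic-like. Of the 606 carriers, 311 held at least 2 of the 9 genes, 158 at least 3 and 41 at least 5. All of these 41 were glutamatergic-like, 32 lay in cluster 5, and 11 held 8 genes. They numbered 3, 0 and 7 in placebo 1, 3 and 5 and 4, 12 and 15 in EPO 2, 4 and 6. As a share of cells this was 1.88% ± 1.90 in placebo and 5.43% ± 3.34 in EPO mice, and 1.27% ± 2.20 and 5.45% ± 3.33 without the shared barcodes. The ranges overlapped, as EPO 2 (2.70%) was below placebo 5 (3.80%). These counts were taken without thinning, and the number of genes seen in a cell grows with its depth. In cluster 5 the mean depth per mouse was 4096 to 11969 UMIs in placebo and 14403 to 17238 UMIs in EPO mice. The part of depth was not tested.

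To ask whether the genes were found in the same neurons, glutamatergic-like cells with and without a UMI of Slc17a6 were compared. Each cell was thinned to 1500 UMIs, since carriers were deeper (median 8509 against 4645 UMIs). Carriers also had a lower mitochondrial share (median 5.18% against 10.6%), which thinning over all genes does not level. In 1 draw of the thinning, 57.0% ± 31.2 of Slc17a6 carriers and 30.5% ± 7.58 of other cells held another of the 9 genes. The difference of 26.5 points was seen in 5 of 6 mice and did not pass a two-sided exact sign-flip permutation test over mice (p = 0.125), and placebo 3 entered with 1 carrier. Taken as the mean over all possible draws, the shares were 61.1% ± 16.4 and 31.9% ± 6.50. This difference of 29.2 points was positive in 6 of 6 mice (exact permutation p = 0.03125, the smallest that 6 mice can give). The mean over all draws was added after the data were seen, and the 9 genes were chosen from these same mice. This p and those of the pairs below are therefore no independent support for a shared cell type. Without the shared barcodes it was 25.5 points, positive in 5 of 6 mice (exact permutation p = 0.0625). Around Nts the same difference was 43.8 points ± 10.0 (5 of 5 mice), around Lxn 34.4 ± 7.30 (6 of 6) and around Etv1 10.9 ± 7.30 (5 of 6).

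Of the 36 pairs of the 9 genes, 31 were found together in more glutamatergic-like cells than the product of their shares gives, with a median ratio of observed to expected of 2.43 (mean over all draws of the thinning). In a single draw these were 30 pairs and a ratio of 2.42, and without the shared barcodes the median ratio was 2.32. Pairs of other genes were not counted, so whether this number and ratio are particular to the 9 genes was not tested. No pair passed the exact sign-flip permutation test after adjustment over the 36 pairs (smallest adjusted p = 0.102, and 0.321 in a single draw), and 6 pairs had an unadjusted p of 0.03125, with 0 such pairs in a single draw. The highest ratio was that of Nts with Lxn (7.197, above expectation in 5 of 5 mice), followed by Nts with Kctd8 (5.46) and Lxn with Kctd8 (4.81). Slc17a6 was found with Nts at 3.31 and with Fn1 at 3.40 times the expected number, each in 5 of 5 mice.

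In the mean over all draws Vwc2l paired otherwise than Nts did. It had its highest ratio with Slc17a6 (4.02, above expectation in 6 of 6 mice). It was below expectation with Etv1 (0.40), Nts (0.46, in 0 of 5 mice above) and Lxn (0.62). In a single draw, on 0 to 2 cells per pair, these 3 ratios were 0.79, 2.39 and 0. Without thinning they were 0.71, 0.99 and 1.33, so the direction for Nts and Lxn depended on the thinning. Of the 103 glutamatergic-like cells with Slc17a6, without thinning, 30 carried Nts and 30 carried Vwc2l, and 4 carried both, against 8.74 expected from the product of the shares. In cluster 5 the same counts were 26, 35 and 5, with 10.1 expected. These counts pool 6 mice and are a description, and the pairs of Vwc2l were singled out after their values were seen.

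**Figure D2:**
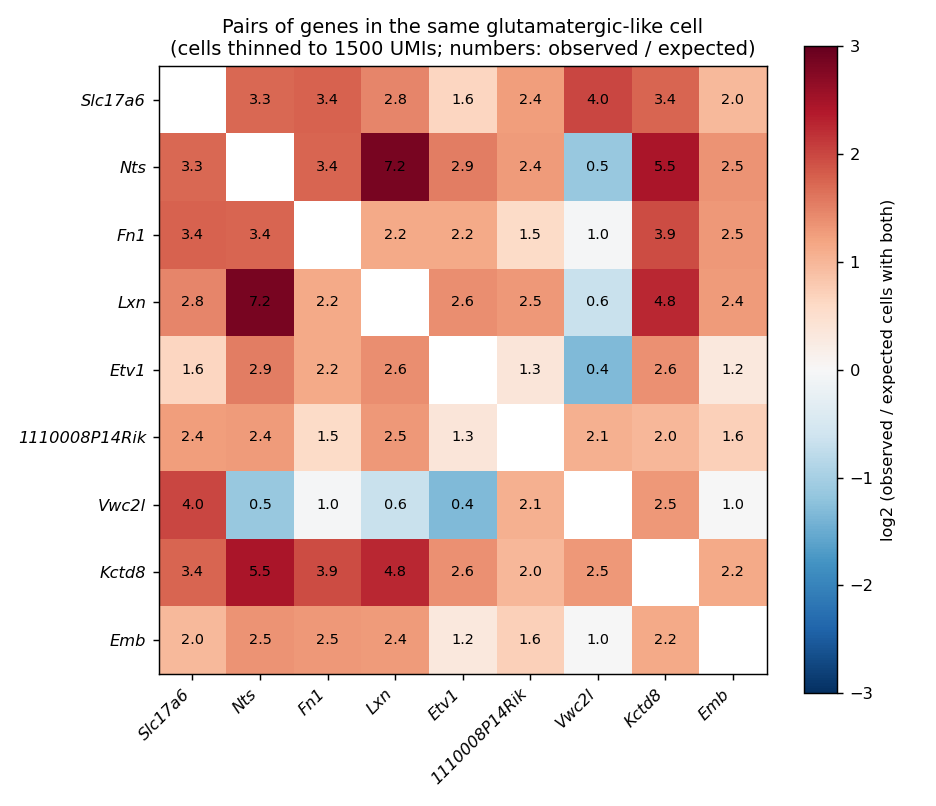
Number of glutamatergic-like cells with both genes of a pair over the number expected from their shares in each mouse, as the mean over all draws of a thinning to 1500 UMIs. Colour gives the log2 ratio and the printed numbers the ratio, from 0.4 for Etv1 with Vwc2l to 7.2 for Nts with Lxn. Most pairs are above 1, and those of Vwc2l with Nts, Lxn and Etv1 are below. Pairs of other genes were not counted.

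Beyond the 9 genes, UMIs were summed per mouse over glutamatergic-like cells with and without Slc17a6 and compared within mice by edgeR's quasi-likelihood test. Placebo 3, with 2 carriers, was left out, so 5 mice entered. Of 7024 tested genes, 9.61% (675) were called higher and 9.92% (697) lower in carriers. Of the other 8 of the 9 genes, 7 passed the count filter and Kctd8 did not. The filter asked for 19.4 CPM in 5 sums of cells. Etv1, 1110008P14Rik and Emb met it in the cells without Slc17a6 alone, whereas Nts, Lxn, Vwc2l and Fn1 passed with the help of the carriers, in which they had to be high, so their fold changes are given as a description without a p.

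Nts was at 311.4, 264.4, 477.6, 346.3 and 371.2 CPM in the Slc17a6 carriers of placebo 1 and 5 and EPO 2, 4 and 6, and at 13.5, 14.3, 7.26, 18.6 and 21.0 CPM in the other cells. Carriers were far above the other cells in each mouse, by a log2 fold change of 4.36 ± 0.21 (SE). In placebo 1 and EPO 2, 34 and 65 of the Nts UMIs of the carriers lay in 1 cell each. Lxn was at 112.5, 134.7, 292.9, 235.5 and 292.0 CPM in carriers and at 16.7 to 30.6 CPM in the other cells (2.91 ± 0.20), with higher values in the carriers of EPO mice. Vwc2l (2.21 ± 0.36) and Fn1 (1.64 ± 0.40) had smaller values. Of the 3 genes that met the filter without the carriers, 1110008P14Rik (1.71 ± 0.15), Etv1 (1.63 ± 0.16) and Emb (1.35 ± 0.23), each was higher, with an edgeR adjusted p of at most 2.6e-05. These genes and Slc17a6 were chosen together from these same mice, so this p too is no independent support for a shared cell type. Kctd8 was at 9.98 to 89.1 CPM in carriers and at 0 to 9.01 CPM in the other cells of these 5 mice. Without the shared barcodes placebo 1 dropped out too, and the log2 fold changes over 4 mice were 4.70 for Nts, 3.13 for Lxn and 2.01 for Vwc2l.

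The VGLUT1 gene Slc17a7 did not pass the test in this comparison (-0.11 ± 0.17, edgeR adjusted p = 0.727), and 67.0% (69 of 103) of the Slc17a6 carriers also held Slc17a7, against 48.2% (248 of 515) of the shallower other cells. Among the 10 partner genes tested, 1 was higher, the ETS factor Etv5 (1.56 ± 0.34), and 1 lower, the GABA-B receptor subunit Gabbr2 (-0.42 ± 0.15). Of 6 CA1 pyramidal genes, 4 were lower: Fibcd1 (-1.90 ± 0.22), Spink8 (-1.22 ± 0.20), Calb1 (-1.18 ± 0.21), which encodes the calcium-binding protein calbindin, and Mpped1 (-0.45 ± 0.16). Wfs1 (-0.03 ± 0.19) and Pou3f1 (0.28 ± 0.16) did not pass. Tshz2 (2.001 ± 0.15) and Rxfp1 (2.55 ± 0.26), the receptor of relaxin, were both higher. Of 4 deep-layer genes tested, Hs3st4 was lower (-0.95 ± 0.35), and of the genes of dentate gyrus and CA3 0 could be tested.

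The genes with the largest fold changes beside these were Syt2 (3.96 ± 0.38), a calcium sensor of vesicle release, Amn (3.02 ± 0.43), Elfn1 (2.71 ± 0.42), a synaptic adhesion protein, and Ddit4l (2.67 ± 0.32). They were followed by Arl4c (2.64 ± 0.36), a small GTPase, Unc5d (2.37 ± 0.43), a netrin receptor, and Gucy1a3 (2.36 ± 0.30), a subunit of soluble guanylate cyclase. On the lower side stood the proteoglycan Dcn (-2.99 ± 0.28), Mdga1 (-2.65 ± 0.54), D130040H23Rik (-2.50 ± 0.53), the growth factor Tgfb2 (-2.42 ± 0.36) and Cpne7 (-2.13 ± 0.19). Flna, which encodes the actin crosslinker filamin A, Parp8 and Grhl1 ranged from -2.10 to -2.04. Of the 675 genes called higher, 674 had an EPO fold change, which was above 0 for 464, with a median of 0.11. Of all 10043 genes tested for EPO, 49.3% were above 0, with a median of -0.01. The 675 include 7 of the 9 genes, which were chosen by that difference, and the cause was not tested. When the cells were split by Nts in place of Slc17a6, 398 genes were higher, 296 of them in both splits, and Slc17a6 itself had a fold change of 1.99 ± 0.28. Of the 6 CA1 genes, 2 were then lower, Fibcd1 (-1.86 ± 0.29) and Wfs1 (-1.14 ± 0.27), and 1 higher, Pou3f1 (0.62 ± 0.16). Spink8 (-0.76 ± 0.30), Mpped1 (-0.10 ± 0.17) and Calb1 (-0.03 ± 0.27) did not pass in that split.

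**Figure D3:**
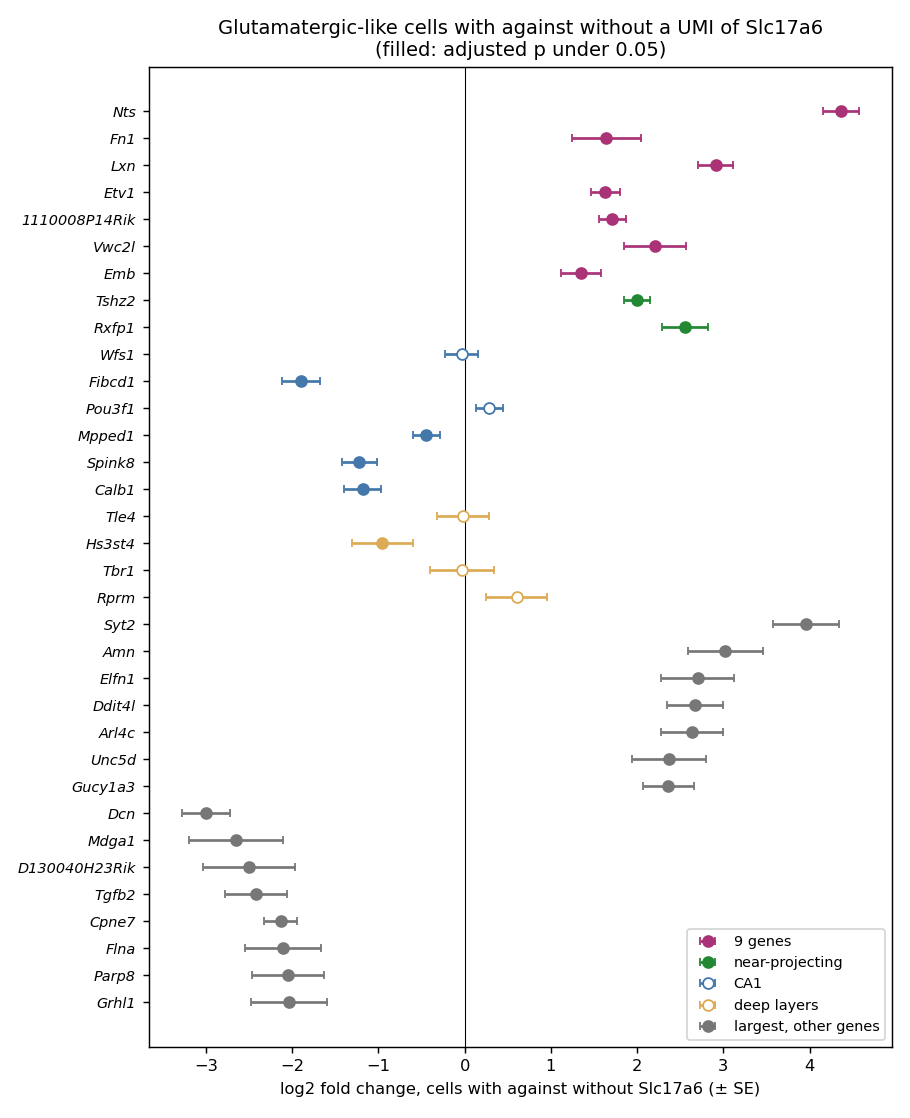
Log2 fold change ± SE (horizontal axis) of named genes between glutamatergic-like cells with and without a UMI of Slc17a6, in 5 mice with the mouse as a block. Filled points had an adjusted p under 0.05 (edgeR) and colours give the list. For Nts, Lxn, Vwc2l and Fn1 the fill is not read, since they passed the count filter with the help of the carriers. For the other genes of the 9 it is no independent support, since they were chosen from these same mice. The 7 genes shown of the 9 lie between 1.35 and 4.36, and the 4 filled CA1 genes lie below 0.

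In which cells the UMIs of each gene lay was then compared between placebo and EPO mice, again as a description. Cluster 5 had 9, 1 and 19 cells in placebo 1, 3 and 5 and 9, 26 and 26 cells in EPO 2, 4 and 6. This was 6.06% ± 4.03 of placebo and 10.5% ± 4.95 of EPO cells, and EPO 2 (6.08%) and EPO 4 (9.59%) lay below placebo 5 (10.3%). The cells of the cluster were also larger libraries in EPO mice, with means of 14403, 15498 and 17238 UMIs against 11969, 4096 and 7510 in placebo mice (4688 in placebo 1 without the shared barcodes). By UMIs, cluster 5 therefore took 9.57%, 2.003% and 11.0% of the placebo libraries and 13.6%, 20.7% and 32.3% of the EPO libraries. These shares of UMIs did not overlap, with means of 7.53% ± 4.84 and 22.2% ± 9.43, and of 5.87% ± 4.65 and 22.4% ± 9.401 without the shared barcodes. The part of the larger libraries in the EPO differences was not tested.

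Cluster 5 held a large part of the EPO difference in CPM. For Slc17a6, UMIs in cluster 5 gave 20.4 CPM ± 1.61 in placebo and 60.8 CPM ± 21.9 in EPO mice, or 88.9% of the difference. For Nts it was 95.6%, for 1110008P14Rik 95.6%, for Vwc2l 83.4%, for Emb 83.1% and for Kctd8 73.1%. For Fn1 it was 53.7%, with a further 39.4% in endothelial-like cells. The endothelial-like part of Fn1 was high in EPO 2 alone, with 42.1 CPM there, 8.21 and 14.4 CPM in EPO 4 and 6 and 10.7, 9.78 and 17.0 CPM in placebo mice. Without EPO 2 it was 11.3 CPM in EPO and 12.5 CPM in placebo mice, and cluster 5 then gave 119% of the Fn1 difference. For Fn1 without EPO 4 and for Vwc2l without EPO 6, the part of cluster 5 dropped to 33.0% and 32.6%. For Etv1 and Lxn, cluster 5 gave more than the whole difference (122% and 156%), because the difference was -23.4 CPM for Etv1 in oligodendrocyte-like and OPC-like cells and -13.5 CPM for Lxn in astrocyte-like cells. Both rested on placebo 3, with 83.1 CPM (17 UMIs) and 48.9 CPM (10 UMIs) there. Without it the means in placebo and EPO mice were 17.6 and 16.1 CPM for Etv1 and 9.70 and 9.29 CPM for Lxn, and cluster 5 gave 97.3% and 94.4% of the difference. Without EPO 6 the part of cluster 5 was 266% for Lxn. Without the shared barcodes it was 90.5% for Slc17a6, 94.9% for Nts, 108% for Etv1, 164% for Lxn and 59.3% for Fn1. Placebo 3, which had the highest shares of astrocyte-like (16.3%) and oligodendrocyte-like cells (27.9%), also had the highest placebo levels of both genes.

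**Figure D4:**
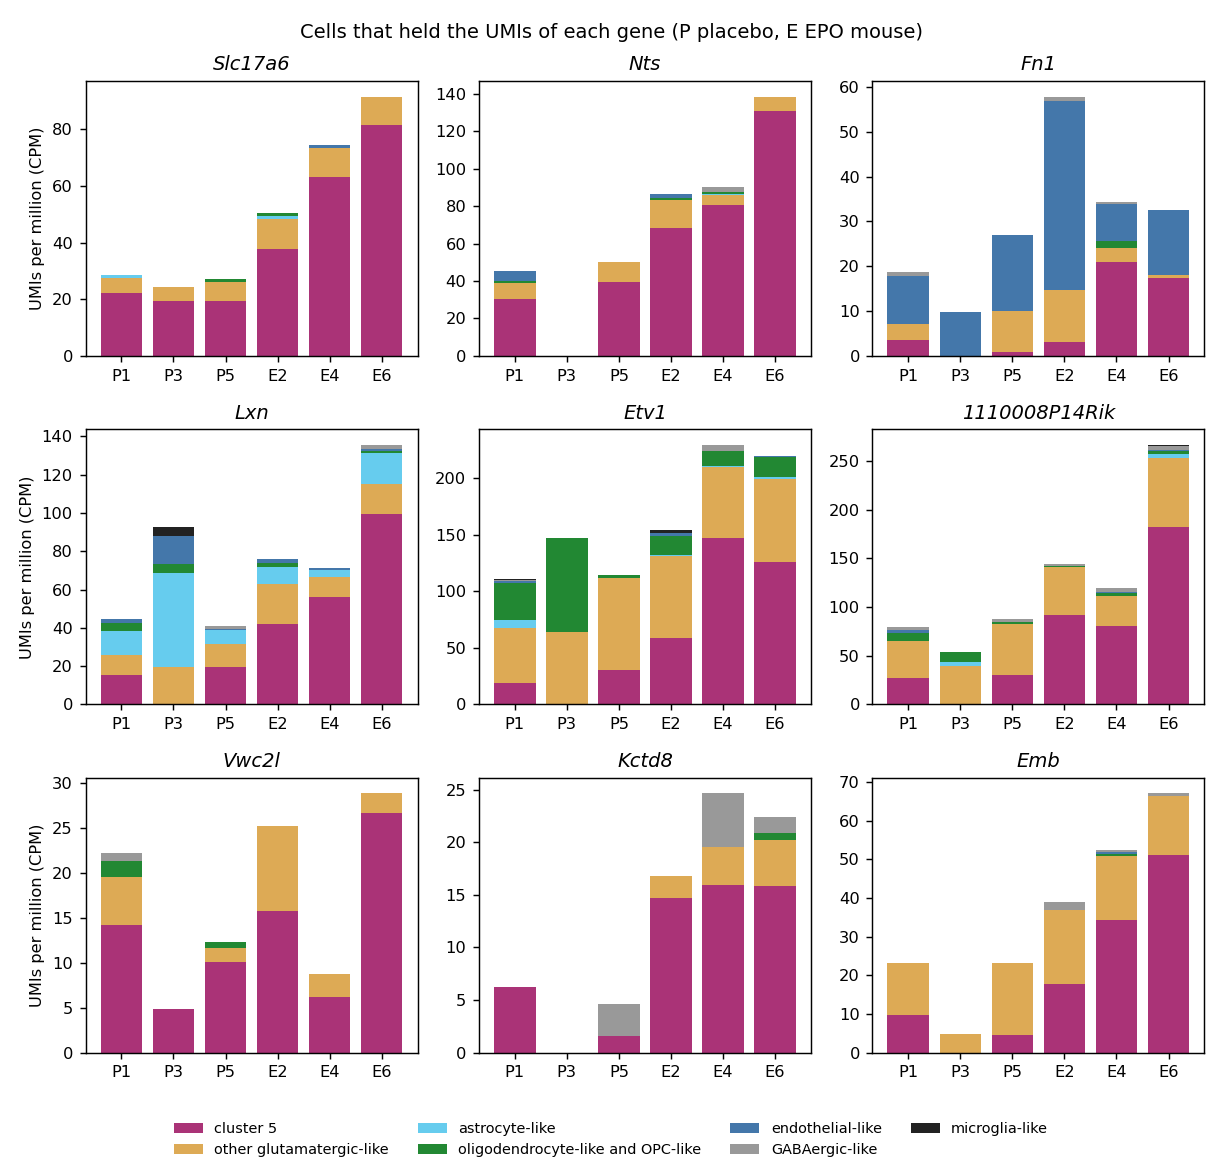
Level of each gene (vertical axes, CPM) in each mouse, divided by the class of cell that held them. P1, P3 and P5 are placebo mice and E2, E4 and E6 EPO mice. The cluster 5 part of Slc17a6 rises from a mean of 20.4 in placebo to 60.8 in EPO mice, and parts of Fn1, Lxn and Etv1 lie outside neurons.

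Within cluster 5 the genes were compared as CPM of the cluster in the 5 mice with at least 5 of its cells. Slc17a6 was at 204 CPM ± 40.2 (n = 2) in placebo and 278 CPM ± 26.6 (n = 3) in EPO mice, and Nts at 337 ± 29.5 and 432 ± 60.9. All Nts UMIs of the cluster lay in 1 cell in placebo 1 (34 UMIs) and in 1 cell in EPO 2 (65 UMIs). Larger gaps were seen for Etv1 (234 ± 55.4 and 511 ± 174), 1110008P14Rik (281 ± 10.2 and 541 ± 143) and Lxn (167 ± 12.3 and 296 ± 21.8). Vwc2l went the other way, with 120 ± 40.6 in placebo and 76.0 ± 43.3 in EPO mice. After removal of the shared barcodes placebo 1 kept 6 cells of the cluster, in which Nts and Etv1 were at 0, Slc17a6 at 35.5 and Lxn at 71.1 CPM. The placebo means were then 105.4 ± 98.8 for Slc17a6, 179 ± 253 for Nts, 137 ± 193 for Etv1 and 123 ± 73.6 for Lxn, so these values rest on few cells. In the other glutamatergic-like cells Slc17a6 was at 10.4 ± 0.673 (n = 3) and 19.5 ± 2.01 (n = 3), and Etv1 at 119 ± 26.9 and 131 ± 12.8.

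Whether more cells carried the genes or each carrier held more was asked by dividing the log2 CPM difference exactly into the share of carriers, the UMIs per carrier and the UMIs per cell. Slc17a6 was carried by 5.52%, 4.65% and 11.96% of cells in placebo 1, 3 and 5 and by 10.8%, 12.5% and 15.9% in EPO 2, 4 and 6. Placebo 5 was within the range of the EPO mice. A Slc17a6 carrier held on average 3.56, 2.50 and 1.59 UMIs in placebo and 3.00, 4.26 and 4.88 UMIs in EPO mice, and here placebo 1 was above EPO 2. Over all retained cells neither measure alone was separate between the groups, while the CPM was. Without the shared barcodes a carrier of placebo 1 held 1.00 and one of EPO 4 held 4.41 UMIs, and the UMIs per carrier no longer overlapped.

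Nts was carried by 6.75%, 0% and 6.52% of placebo and by 6.76%, 7.38% and 12.8% of EPO cells, and a carrier held 4.64 and 5.42 UMIs in placebo 1 and 5 and 8.20, 8.80 and 9.14 UMIs in EPO mice. The share in placebo 1 and EPO 2 was nearly equal, but without the shared barcodes it was 2.19% in placebo 1 (6.94% in EPO 4). The UMIs per carrier did not overlap, and were 2.33 in placebo 1 without those barcodes. In EPO 2, 65 Nts UMIs lay in 1 cell, and in placebo 1, 34 lay in 1 cell. The UMIs per carrier of these mice therefore rest largely on single cells. The 0 of 43 cells of placebo 3 allow a share of up to 6.98%. Lxn was carried by 18.2% ± 6.56 of placebo and 19.2% ± 8.22 of EPO cells, a difference of 0.990 points, whereas a carrier held 1.95 ± 0.242 UMIs in placebo and 3.64 ± 0.364 UMIs in EPO mice. Emb was carried by 8.78% ± 5.81 and 16.5% ± 3.19 of cells, at 1.24 ± 0.267 and 2.36 ± 0.540 UMIs per carrier. For Fn1 the shares were 6.02% ± 1.74 and 9.30% ± 0.802. The shares of Nts, Fn1 and Emb were higher in each EPO than in each placebo mouse, with and without the shared barcodes, as were those of 5.37% of the 10043 tested genes, and nothing is read from this count.

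Over the 9 genes, the share of carriers and the UMIs per carrier were both above 0 for each gene. The genes were chosen by their CPM difference, and the same parts are not given for all tested genes. Nothing is therefore read from this count. The median part was 0.54 (log2) for the share of carriers and 0.83 for the UMIs per carrier, with -0.25 for the UMIs per cell in the 7 genes with carriers in each mouse. For Nts and Kctd8 the placebo mean rests on placebo 1 and 5, since placebo 3 had 0 carriers. The share was the larger part for 4 genes and the UMIs per carrier for 5, and without the shared barcodes for 2 and 7, with medians of 0.80 and 1.08. For Slc17a6 the parts were 0.94 and 0.71, and 1.15 and 1.34 without the shared barcodes, so which part was larger turned with those 26 barcodes. For Lxn (0.06 and 0.90), Etv1 (0.20 and 0.74) and 1110008P14Rik (0.36 and 1.10) the UMIs per carrier were the larger part in both cases.

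UMIs per carrier also grow with the depth of the carrying cells. Divided further, the median over the 9 genes was 0.41 for the CPM within carriers and 0.37 for the total UMIs of the carrier cells, and without the shared barcodes 0.04 and 1.00. The CPM within carriers then ran from -0.78 for Fn1 to 0.76 for Slc17a6. After thinning of each cell to 1500 UMIs (mean over all draws), Slc17a6 was carried by 2.69% ± 1.43 of placebo and 5.13% ± 1.21 of EPO cells, Nts by 1.62% ± 1.48 and 3.82% ± 1.41, and Emb by 2.42% ± 1.02 and 4.72% ± 0.335. Lxn went the other way, with 8.24% ± 6.17 and 7.06% ± 3.67.

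The UMIs lay in few cells. The 10 cells with the most UMIs of a gene held 65.0% of all Nts UMIs, 55.6% of Kctd8, 50.4% of Vwc2l and 44.1% of Slc17a6, and 25.03% of 1110008P14Rik. Of these 10 cells, 8 to 10 came from EPO mice for each gene (which gave 148, 271 and 164 of the 973 cells), and 9 or 10 lay in cluster 5 for each gene but Fn1 (4). Their median depth was 39114 UMIs for Slc17a6, Nts, Lxn and Etv1, against 4458 UMIs over all retained cells. Of the carriers, 39.0% (Kctd8) to 61.6% (Emb) held a single UMI. Doublets were not called.

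**Figure D5:**
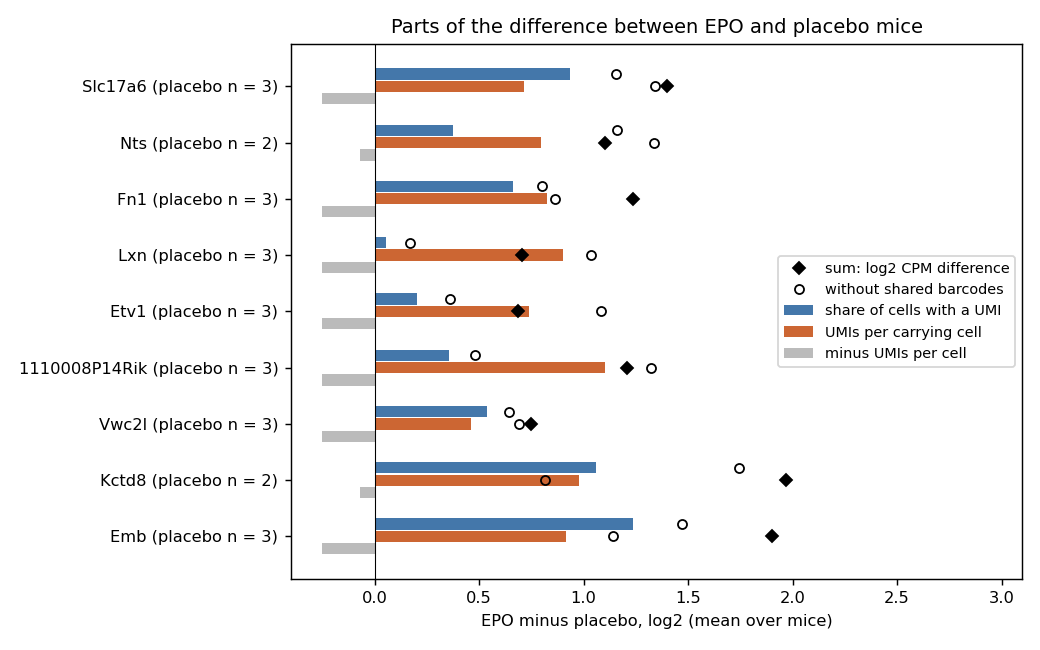
EPO minus placebo (horizontal axis, log2, mean over mice) for the share of cells with a UMI, the UMIs per carrying cell and the negative UMIs per cell (bars), whose sum is the log2 CPM difference (diamonds). Open circles leave out the shared barcodes. The share and the UMIs per carrier are above 0 for each gene, from which nothing is read since the genes were chosen by this difference. For Lxn the share is near 0 (0.06) beside 0.90 for the UMIs per carrier.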

How the data were processed

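CA1 cells of 3 placebo and 3 EPO mice were measured by Drop-seq. The authors deposited raw counts of UMIs for each gene in 1000 barcodes per mouse, without normalization. The processing notes name bcl2fastq 2.15, STAR 2.4.0 and mm10, whereas the annotation and the choice of barcodes are not given in the sources used here. Missing entries, which marked genes with no UMI in that animal, were set to 0. Cells were filtered by the limits of the study's methods. These were read here as a gene number above 1000 and up to 8000, with no more than 40% of UMIs from 27 mitochondrial genes, which left 390 placebo and 583 EPO cells, the numbers of cells that the study gives. The study's minimum of cells per gene was not applied. Doublets were not called, and the 5% of cells with the most UMIs were left out in an alternative.

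Counts were log-normalized to 10000 per cell, and 1494 variable genes without the 9 genes and mitochondrial genes, 20 principal components and 15 neighbors were clustered by the Leiden algorithm at resolution 1 (scanpy 1.11.5, Python 3.11.15). A cluster was named after the class with the highest level of its markers. The endothelial-like cluster scored as high for another class (1 and 1). UMIs were summed per mouse, or per mouse and set of cells with the mouse as a block, for sets of at least 5 carriers. They were scaled by TMM, filtered by filterByExpr and tested by the quasi-likelihood test of edgeR 4.0.16 with Benjamini-Hochberg adjustment at 5% (R 4.3.3). DESeq2 1.42.0 and limma 3.58.1 were alternatives, and the procedures were tested on simulated data. An adjusted p in the text comes from edgeR unless limma or DESeq2 is named. SE is the fold change over the square root of F. Differences between cells within a mouse were tested over mice by exact sign-flip permutation, two-sided. Detection was compared after thinning to 1500 UMIs in 1 draw. The mean over all draws, computed exactly, and the values without shared barcodes were added after seeing the data. Confidence intervals of shares are exact (95%), and a count of 0 was read as up to 3 counts. The mice came from separate dissociations, and the groups share no replicate numbers.

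The 9 genes, the gene lists and the tests were chosen with earlier results of these data known. Genes named in the text are the 9, the partner genes and the lists for CA1, deep cortical layers, near-projecting neurons, and dentate gyrus and CA3, and up to 8 genes per direction with the largest fold change in the comparison of Slc17a6 carriers. The share of carriers in glutamatergic-like against other cells had been planned with a test and is given as a description, because classes were formed on the same cells.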

Additional observations from a re-analysis of the deposited data

Results flagged for a closer look

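Vwc2l had UMIs in the 5027 barcodes outside the filter on cells, which the comparisons do not use. There it was at 15.2 CPM ± 7.85 (SD, n = 3) in EPO mice and at 3.47 CPM ± 3.09 (n = 3) in placebo mice. By mouse it was at 5.92, 0 and 4.51 CPM in placebo 1, 3 and 5 and at 17.1, 21.9 and 6.54 CPM in EPO 2, 4 and 6, on 28 UMIs in all. These barcodes hold 2748310 UMIs, and the other 8 genes overlapped between the groups there. Of the 10043 genes tested for EPO, 3.78% were higher there in all 3 EPO than in all 3 placebo mice.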

How the results depend on the processing

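The EPO fold change of the 9 genes stayed above 0 under each of 10 alternatives and with each mouse left out. Over all genes the count of calls for EPO was 0 and became 1 with DESeq2, 1 with the D number as a term (Rarres2, lower, in both), and 52 without a filter on low counts. Against 1372 genes between cells with and without Slc17a6, 665 were called by DESeq2, 586 without the 5% of cells with the most UMIs, 364 when carriers were called after thinning, 789 with Nts in place of Slc17a6, and 779 to 1325 with 1 mouse left out, the lowest without EPO 6 and 868 without EPO 4. With Nts in place of Slc17a6, Gucy1a3 (-0.46), Dcn (0.37) and Tgfb2 (0.81) turned direction. The genes with a higher share in glutamatergic-like cells in every mouse numbered 1, and 4 both without thinning and as the mean over all draws, and 1 to 3 with 1 mouse left out, the highest without placebo 3. Pairs above expectation in every mouse numbered 5 in 1 draw, 0 after thinning to 1000 UMIs, 23 without thinning, 2 without the 5% of cells with the most UMIs, 3 in another draw, 18 as the mean over all draws, and 5 to 8 with 1 mouse left out, the highest without placebo 1. The difference around Slc17a6 of 26.5 points became 33.6 without thinning, 39.5 for cells with at least 2 Slc17a6 UMIs, and 29.2 as the mean over all draws, each with an exact permutation p of 0.03125, and 18.8 in another draw (p = 0.281). With 1 mouse left out it was 20.7 to 37.1 points. The share of Lxn carriers, 0.990 points higher after EPO, turned to -1.72 after thinning, -1.17 as the mean over all draws and -5.90 within D1, and was -3.75 to 4.68 with 1 mouse left out (below 0 without placebo 1, placebo 5 or EPO 6). That of 1110008P14Rik was -1.18 within D1. The cause was not tested. The medians of the share of carriers and of the UMIs per carrier stayed above 0 under each alternative run. No paired analysis was possible because the groups share no replicate numbers. The 43 cells of placebo 3 limit each placebo mean.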
